A study of Mus musculus with 47 samples.

Results

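Voltage-gated sodium and calcium channels are the subject here: the genes whose symbol in either of the authors' deposited result tables begins with Cacna, Cacnb, Cacng or Scn and goes on with a digit. The rule found 36 genes among the 55416 genes that both count tables hold, 36 of them in the male result table and 35 in the female one. Of these genes, 12 encode sodium channel subunits, 8 of them pore-forming α subunits (one of which, Scn7a, encodes the sodium sensor Nax) and 4 of them β subunits. The other 24 encode calcium channel subunits, with 3 pore-forming genes each of the CaV1, CaV2 and CaV3 types, 4 genes of α2δ subunits, 4 of β subunits and 7 of γ subunits. A further 4 genes with such a symbol in the GENCODE annotation, Scn4a, Scn11a, Cacna1f and Cacng1, were in neither result table and were not followed. All 36 genes passed the filter on low counts in each sex.

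The RNA came from brains of 3xTg mice, which carry familial mutant forms of human APP, tau and presenilin. Mice began an amino acid-defined diet at 6 months of age and ate it for 9 months. The diet was either the Control diet or 1 of 3 diets low in isoleucine (IleR), leucine (LeuR) or valine (ValR). Every group carried the transgenes, and non-transgenic mice had no library here, so effects of diet that need the transgenes and those that do not cannot be told apart. The APP and tau transgenes of this model are driven by a Thy1 promoter, which is active in neurons. The methods of the study name the left hemisphere as the tissue, while 1 of the protocol labels names liver. The 8 Pan-neuronal marker genes summed to between 3617 and 5572 CPM over the libraries. The males gave 14 libraries, 4 on Control, 3 on IleR, 3 on LeuR and 4 on ValR. The females gave 23 libraries, 6 on Control, 5 on IleR and 6 each on LeuR and ValR. The labels list 10 more male libraries that are not analysed here. The methods of the study state that samples standing apart in a principal component analysis were taken out before the tests, so the males may be a selected set; whether the 10 are those samples is not given in the sources used here. A library is called by its diet with its label's number, such as Control 4.

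Sodium channels open within a fraction of a millisecond of depolarisation and carry the rising phase of the action potential, and their β subunits set gating and anchor the pore at the axon initial segment and at nodes of Ranvier. Calcium channels turn the action potential into calcium entry: CaV2 pores trigger transmitter release, CaV1 pores couple activity to gene expression and CaV3 pores open near rest and shape burst firing. The α2δ and β subunits bring calcium channel pores to the membrane, while most brain γ subunits are transmembrane AMPA receptor regulatory proteins (TARPs), which carry AMPA-type glutamate receptors to the synapse.

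Each library held between 10672599 and 25722333 expected counts in total. Levels are given as CPM, the count scaled to a common library size after TMM normalization. Libraries of 1 diet differed by more than counting error in all 73 pairs compared. In males, markers of brain regions moved with diet. The 12 Cerebellum marker genes summed to 50.9 to 115 CPM in Control, 1473 to 3927 in IleR, 258 to 1538 in LeuR and 1582 to 5025 in ValR. The 12 Forebrain marker genes summed to 2015 to 7560.4 CPM in Control, 506 to 767 in IleR, 461 to 1486 in LeuR and 442 to 566 in ValR. The 12 Brainstem and spinal cord genes summed to 2.66 to 25.8 CPM in Control, 83.7 to 341 in IleR, 28.1 to 734 in LeuR and 129 to 640.4 in ValR. In IleR, LeuR and ValR males respectively, 11, 9 and 11 Cerebellum genes and 9, 10 and 10 Brainstem and spinal cord genes were higher than in Control, 10, 6 and 10 Forebrain genes were lower, and 1 of the 8 Pan-neuronal genes was higher and 1 lower. Lists of other cell types moved too: 2, 0 and 4 of the 6 Microglia genes and 3, 2 and 4 of the 6 Skeletal muscle genes tested were lower, and 2, 1 and 2 of the 4 Sensory neuron genes tested were higher. The Microglia genes summed to 346 to 405 CPM in Control and 234 to 372 in ValR, and the Skeletal muscle genes to 6.81 to 11.2 and 1.12 to 1.94. The part of these lists of other cell types in the results below was not tested. Hoxa2, Hoxa3 and Hoxb5, which mark brainstem and spinal cord, had 0 counts in all 4 male Controls, so they passed the filter only through restricted males and their Control values rest on the prior count. Leaving them out, 8, 8 and 7 of the other 9 Brainstem and spinal cord genes were higher.

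A hindbrain score was the mean log2 CPM of both hindbrain lists less the mean of the Forebrain list, and it holds none of the channel genes. The same score from the Cerebellum list alone, which holds no gene at 0 in all Controls, ran from -7.38 to -3.46 in Control, 2.19 to 4.18 in IleR, -3.03 to 1.68 in LeuR and 2.66 to 4.89 in ValR males. The score over both lists averaged -7.05 in Control males, 0.85 in IleR, -1.02 in LeuR and 1.81 in ValR males. Its differences from Control were 7.90, 6.03 and 8.86, and no restricted male overlapped with the Controls. The marker lists were chosen with earlier results of these data known, so these differences are a description. In females IleR differed from Control by -0.158, LeuR by 0.869 and ValR by 0.468, with overlapping groups. Among the Controls of the male set, Control 4 had the highest score, -4.70, and LeuR 21 had the lowest score among the restricted males, -4.44, with the other LeuR males at 1.28 and 0.10. LeuR 21 stood apart in the channel genes too: it had the highest Scn9a, Scn7a, Cacng4 and Cacnb2 and the lowest Scn1a, Scn4b and Scn8a of the 14 male libraries. In bulk RNA, fewer cells of a type and less RNA per cell cannot be told apart, and diet and the regional markers of the males cannot be told apart by group.

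Levels of different genes were compared per kb of exon in the Control libraries. Cacng7, a γ subunit that acts as a TARP, stood high at 73.3 ± 2.71 CPM per kb (SD, n = 4) in males and 73.0 ± 12.1 CPM per kb (SD, n = 6) in females. Scn2b followed, and then Cacnb3 and Scn4b. Among the pores, Scn8a had 32.6 ± 6.56 CPM per kb and Scn2a 26.0 ± 6.21 CPM per kb in Control males (SD, n = 4). At the other end stood Cacna1s, the skeletal muscle pore, and Scn10a, a pore of sensory neurons, with 0.129 ± 0.0578 and 0.119 ± 0.0609 CPM per kb in Control males (SD, n = 4). The groups of libraries of neighbours in this order overlapped for 33 of the 35 neighbouring pairs in each sex, so most of the order is not resolved beyond the spread. Cacng6 had at most 3 counts in 10 of the 14 male libraries and Scn10a in 7 of them, so their values rest on very few reads.

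Each restricted diet was then compared with Control within males, by the quasi-likelihood test of edgeR, with p-values adjusted after Benjamini and Hochberg over all 22197 genes tested and a threshold of 0.05. In IleR males 2 of the 36 channel genes rose and 8 fell, where 6.63% of all genes rose and 8.68% fell. In LeuR males 2 rose and 10 fell, beside 3.81% and 6.33% of all genes. In ValR males 5 rose and 11 fell, beside 11.1% and 12.4% of all genes. The median log2 fold change over the 36 genes was -0.30 in IleR, -0.58 in LeuR and -0.20 in ValR, and over all genes 0.04, 0.05 and 0.03. Of the 36 genes, 22 passed the threshold for at least 1 diet, 6 of them for all 3, 4 for 2 and 12 for 1, and none in opposite directions for different diets. The 3 comparisons share the same 4 Control libraries. Cacna2d1, Cacnb1, Cacnb3, Cacng3 and Cacng8 fell for all 3 diets and Cacna2d2 rose for all 3. In GRCm38, by GENCODE M21, these genes span chr5:15934691-16374511 (Cacna2d1), chr11:98001508-98023034 (Cacnb1), chr15:98630840-98644529 (Cacnb3), chr7:122670492-122769393 (Cacng3), chr7:3390683-3415648 (Cacng8) and chr9:107399612-107529343 (Cacna2d2), exons and introns included.

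The counts changed when single libraries were left out and when the hindbrain score was a covariate. The IleR count of genes that fell was 5 without Control 1, Control 3, IleR 13, IleR 14 or IleR 17, and its count of genes that rose was 1 without Control 3, Control 5, IleR 14 or IleR 17. For LeuR the count of genes that fell was 2 without Control 1, Control 3 or LeuR 19, and 5 without LeuR 20, and the count of genes that rose was 0 without Control 1, Control 3, Control 5, LeuR 19 or LeuR 21. For ValR the count of genes that rose was 3 without ValR 10. Without Control 4, 3 genes rose and 10 fell in IleR, 2 rose and 14 fell in LeuR and 4 rose and 13 fell in ValR, and without LeuR 21 the LeuR counts were 0 and 12. With the hindbrain score as a covariate, none of the 36 genes passed the threshold for any diet in edgeR, and 3, 12 and 0 of all genes did for IleR, LeuR and ValR. No restricted male overlapped with the Controls in this score, so this fit cannot separate diet from the regional markers. The folds did not all shrink with the calls: of the 38 calls against Control, 8 changed sign, 30 kept it and 6 of these were at least as large. The standard errors were 0.894 to 2.83 times those without the covariate (median 1.57), and the fold without it lay inside the 95% interval with it for 16 of the 38. Those at least as large were Cacng5 for IleR, Cacnb4 and Scn9a for LeuR and Cacna1a, Cacna1g and Cacng5 for ValR. In ValR, Cacna1g had 2.15 ± 0.61 and Cacng5 2.29 ± 0.72 (SE) on the log2 scale with the covariate, beside 0.83 ± 0.28 and 1.45 ± 0.31 without it. Fitting only the LeuR and Control males also left no LeuR call, while the fit of DESeq2 kept each count within 1.5 times.

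**Figure D1:**
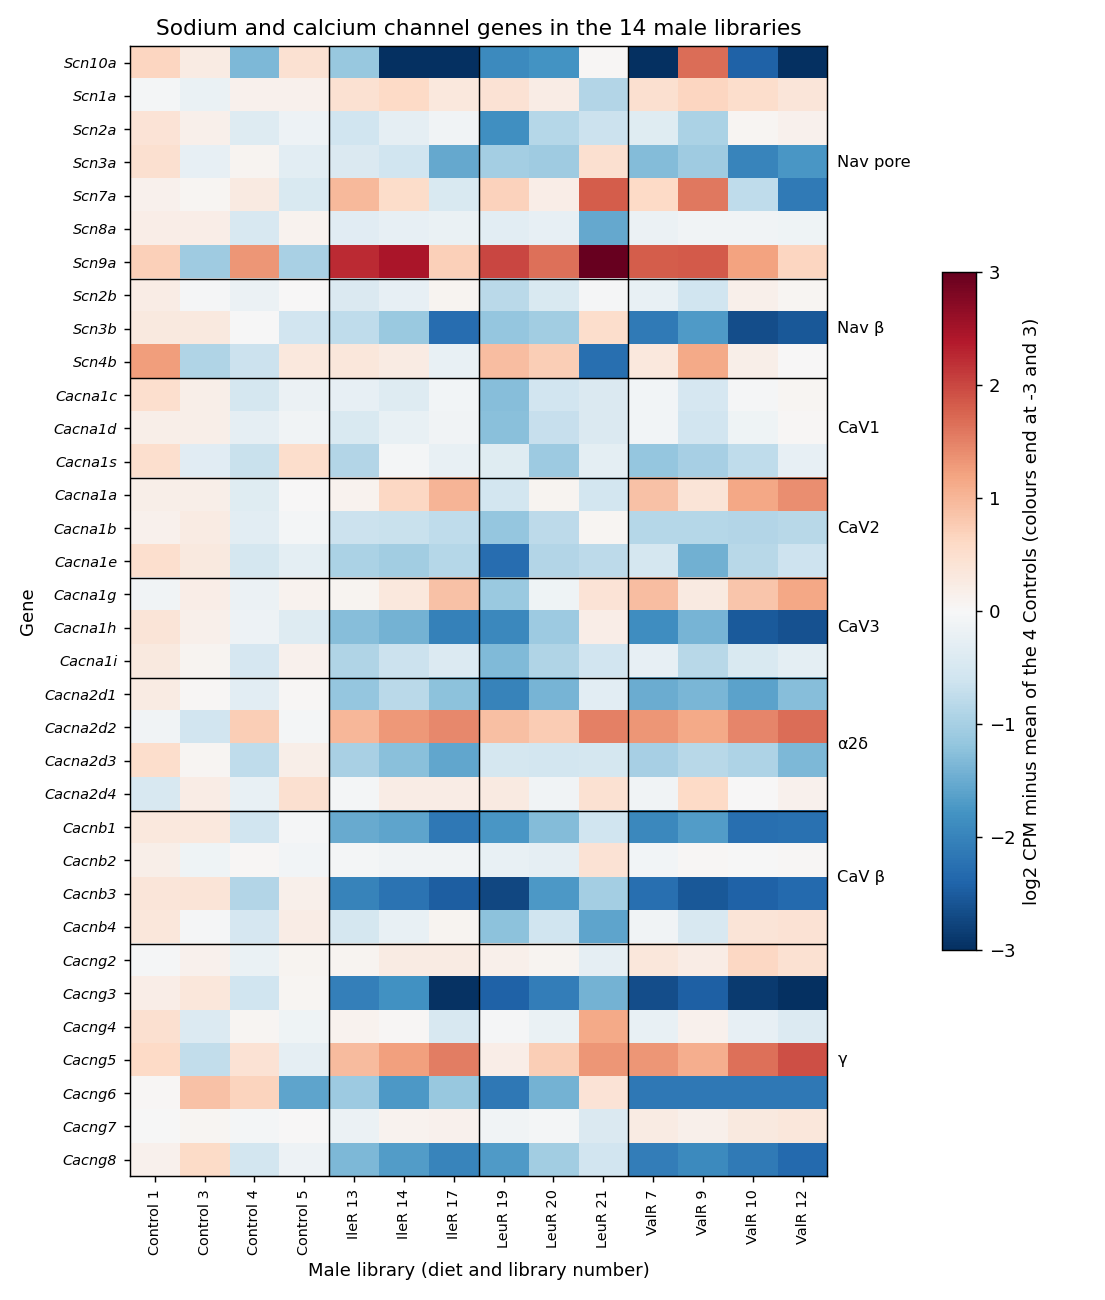
Each row is 1 of 34 channel genes, grouped by subunit family, and each column a male library; colour gives log2 CPM minus the mean of the 4 Controls, from blue (lower) to red (higher), with colours ending at -3 and 3. Cacng3, Cacnb3, Cacnb1 and Cacng8 are blue across the IleR, LeuR and ValR columns and Cacna2d2 is red across them, while LeuR 21 is paler in several rows and dark red for Scn9a.

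Sodium channel pores changed in few cases. Among the 4 pores of central neurons, Scn1a, Scn2a, Scn3a and Scn8a, a fall in Scn2a for LeuR and a fall in Scn3a for ValR passed the threshold. Scn1a, the main pore of fast-spiking inhibitory neurons, had 220.0, 198, 249 and 247 CPM in the 4 Control males, 312, 344 and 285 in the 3 IleR males, 309, 264 and 123 in the 3 LeuR males and 320.0, 356, 331 and 294 in the 4 ValR males. The IleR and ValR values all lay above the Control values, while LeuR 21 lay below all of them. Its log2 fold changes of 0.46 (95% interval -0.02 to 0.94, adjusted p = 0.19) for IleR and 0.51 (95% interval 0.06 to 0.96, adjusted p = 0.0953) for ValR did not pass the threshold. Scn8a, the pore of mature nodes and initial segments, ran from 175 to 578 CPM across the males, and its log2 fold change was -0.29 (95% interval -0.81 to 0.24, adjusted p = 0.483) for IleR, -0.61 (95% interval -1.14 to -0.08, adjusted p = 0.128) for LeuR and -0.16 (95% interval -0.64 to 0.33, adjusted p = 0.682) for ValR.

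Scn2a, a pore of excitatory neurons and unmyelinated axons, had 428, 359.6, 247 and 291 CPM in the 4 Control males, 215, 269 and 301 in the 3 IleR males, 90.0, 180.5 and 206 in the 3 LeuR males and 253, 169, 339 and 356 in the 4 ValR males. LeuR was the lowest group and its 3 libraries lay below all Controls, whereas the IleR and ValR values overlapped with Control. The log2 fold change for LeuR was -1.06 ± 0.30 (SE, adjusted p = 0.042), and the call was lost without Control 1, Control 3, Control 5, ValR 7, ValR 10, IleR 14, LeuR 19 or LeuR 20 (adjusted p up to 0.158). Scn3a, a pore best known from the embryonic brain, had 66.6, 39.6, 50.2 and 38.0 CPM in the 4 Control males, 35.1, 31.0 and 16.3 in the 3 IleR males, 23.3, 22.7 and 65.8 in the 3 LeuR males and 19.0, 22.7, 12.0 and 14.0 in the 4 ValR males. The 4 ValR values lay below all Controls, and LeuR 21 was among the highest libraries. Its log2 fold change was -1.53 ± 0.36 (SE, adjusted p = 0.00815) for ValR, past the threshold without any single library (highest adjusted p = 0.0305), and -0.82 (95% interval -1.65 to 0.01, adjusted p = 0.174) for IleR. Scn3a and Scn2a are neighbours on chromosome 2, as are Scn1a, Scn9a and Scn7a.

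The sodium channel pores of sensory neurons were read at low levels. Scn9a, a pore of pain-sensing neurons, had 3.13, 0.828, 4.84 and 0.894 CPM in the 4 Control males, 9.19, 10.7 and 3.14 in the 3 IleR males, 7.79, 6.15 and 29.8 in the 3 LeuR males and 6.84, 7.01, 4.48 and 2.99 in the 4 ValR males. LeuR 21 stood far above the rest, and all 3 LeuR libraries lay above all Controls, while IleR 13 and IleR 14 lay above the other LeuR males. The LeuR change was 2.60 ± 0.68 (SE, adjusted p = 0.0298) on the log2 scale, lost without Control 1, Control 3, Control 5, LeuR 19 or LeuR 21 (adjusted p up to 0.125), and 1.68 (95% interval 0.22 to 3.13, adjusted p = 0.113) for IleR. The LeuR value was 3.18 ± 0.89 (SE) with the hindbrain score as a covariate, not past the threshold. The 5 Sensory neuron markers summed to 0.95 to 3.95 CPM in Control, 7.88 to 12.8 in IleR, 5.08 to 20.5 in LeuR and 5.18 to 14.5 in ValR, so every restricted group lay above the Controls. Mrgprd, one of them, had 0 CPM in all Control and LeuR males. In LeuR 21 the summed CPM of the Pituitary markers was 25.0, and in no other male library was it above 1.89. The part of either list in the Scn9a values was not tested. Scn7a, at 0.573 to 10.4 CPM, and Scn10a, at 0 to 2.90 CPM, passed the threshold for no diet, and Scn10a was highest in ValR 9, at 2.90 CPM.

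Of the sodium channel β subunits, Scn3b fell for ValR and Scn2b and Scn4b passed the threshold for no diet. The β subunits are single-span proteins with an immunoglobulin fold that also act in cell adhesion. Scn3b had 126, 124, 101 and 68.5 CPM in the 4 Control males, 60.0, 47.2 and 20.7 in the 3 IleR males, 45.3, 49.0 and 146 in the 3 LeuR males and 23.4, 31.3, 16.1 and 17.4 in the 4 ValR males. ValR was the lowest group, with no overlap with Control, and LeuR 21 was the highest library of all. On the log2 scale the change was -2.25 ± 0.42 (SE, adjusted p = 0.00173) for ValR, held without any single library (highest adjusted p = 0.0086), -1.30 (95% interval -2.25 to -0.35, adjusted p = 0.0636) for IleR and -0.38 (95% interval -1.30 to 0.54, adjusted p = 0.604) for LeuR. Scn2b, which links to the pore by a disulfide bond, ran from 177 to 358 CPM, with -0.40 (95% interval -0.84 to 0.03, adjusted p = 0.221) for LeuR. Scn4b, the subunit tied to resurgent current in Purkinje and striatal neurons, spread from 36.1 to 415 CPM, and its Controls alone covered 415, 92.9, 110.4 and 215 CPM. Its log2 fold change for ValR, 0.22 (95% interval -1.0 to 1.44, adjusted p = 0.832), was therefore poorly bounded.

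Among the CaV1 pores, the L-type channels, Cacna1d fell for LeuR and no other call was made. Cacna1d had 85.3, 85.3, 62.4 and 70.1 CPM in the 4 Control males, 54.4, 64.6 and 70.3 in the 3 IleR males, 31.2, 46.7 and 55.5 in the 3 LeuR males and 70.9, 50.1, 68.4 and 77.3 in the 4 ValR males. All 3 LeuR values lay below all Controls, with LeuR 19 lowest. The log2 fold change for LeuR was -0.77 ± 0.20 (SE, adjusted p = 0.027), lost without Control 1, Control 3 or LeuR 19 (adjusted p up to 0.114). For IleR and ValR it was -0.26 ± 0.19 and -0.18 ± 0.18 (SE). Cacna1c, the other L-type pore of neurons, ran from 43.1 to 149 CPM and had a log2 fold change of -0.77 (95% interval -1.29 to -0.26, adjusted p = 0.0569) for LeuR. Cacna1s had 0.288 to 1.17 CPM across the males, and 20.0% of its exon length overlaps a gene on the opposite strand, whose reads cannot be told apart where the counting did not use strand.

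The CaV2 pores of transmitter release moved in both directions. Cacna1a, the P/Q-type pore of most fast central synapses and of Purkinje cells, rose for ValR, whereas Cacna1b, the N-type pore, fell for IleR and ValR and Cacna1e, the R-type pore, fell for LeuR. Cacna1a had 257, 259, 178 and 228 CPM in the 4 Control males, 245, 348 and 465 in the 3 IleR males, 156, 243 and 155 in the 3 LeuR males and 417, 299, 508 and 599 in the 4 ValR males. ValR was highest and did not overlap with Control, while IleR and LeuR overlapped. Its log2 fold change was 0.98 ± 0.24 (SE, adjusted p = 0.00978) for ValR, held without any single library (highest adjusted p = 0.0358), 0.61 (95% interval 0.06 to 1.17, adjusted p = 0.126) for IleR and -0.32 (95% interval -0.88 to 0.24, adjusted p = 0.463) for LeuR. Cacna1b had 186, 202, 136 and 164 CPM in the 4 Control males, 109, 108 and 99.5 in the 3 IleR males, 76.0, 98.3 and 176 in the 3 LeuR males and 93.9, 93.6, 92.2 and 94.9 in the 4 ValR males. The IleR and ValR values were low and even, with no overlap with Control, and LeuR 21 lay within the Controls. In edgeR, the log2 fold change was -0.71 ± 0.22 (SE, adjusted p = 0.0446) for IleR, lost without Control 1, Control 3, Control 5, ValR 7, ValR 9, ValR 10, IleR 13, IleR 14 or IleR 17 (adjusted p up to 0.12), and -0.88 ± 0.20 (SE, adjusted p = 0.00683) for ValR, held without any single library (highest adjusted p = 0.0244).

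Cacna1e had 419, 364, 206 and 242 CPM in the 4 Control males, 153, 144 and 164 in the 3 IleR males, 60.1, 159.8 and 172 in the 3 LeuR males and 203, 109, 166 and 191 in the 4 ValR males. No restricted library reached the lowest Control, and LeuR 19 was the lowest of all. As a log2 fold change this was -1.24 ± 0.34 (SE, adjusted p = 0.0364) for LeuR, lost without Control 1, Control 3, ValR 10, IleR 14, LeuR 19 or LeuR 20 (adjusted p up to 0.111), while -1.0 (95% interval -1.73 to -0.27, adjusted p = 0.0621) for IleR and -0.88 (95% interval -1.54 to -0.22, adjusted p = 0.0532) for ValR missed the threshold. Within the CaV2 pores, the share of Cacna1a in the summed CPM per kb had medians of 40.6% in Control, 64.8% in IleR, 56.8% in LeuR and 70.7% in ValR. The Control shares ran from 38.9% to 43.4% and the ValR shares from 65.6% to 75.4%, with no overlap, while the LeuR shares from 35.6% to 57.6% spanned the Controls, with LeuR 21 the lowest library.

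The CaV3 pores, or T-type channels, also split. Cacna1g, the T-type pore of thalamic relay neurons and Purkinje cells, rose for ValR, Cacna1h fell for IleR and ValR and Cacna1i, prominent in the thalamic reticular nucleus, fell for LeuR. Cacna1h had 104, 88.4, 70.6 and 60.1 CPM in the 4 Control males, 32.4, 29.3 and 19.4 in the 3 IleR males, 20.6, 37.2 and 91.0 in the 3 LeuR males and 21.6, 30.1, 13.7 and 12.9 in the 4 ValR males. IleR and ValR lay below all Controls, while LeuR 21 lay among the Controls and far from the other LeuR males. Its fitted log2 fold change was -1.58 ± 0.44 (SE, adjusted p = 0.0275) for IleR, lost without Control 1, Control 3, IleR 13, IleR 14 or IleR 17 (adjusted p up to 0.109), -2.05 ± 0.40 (SE, adjusted p = 0.00268) for ValR, held without any single library (highest adjusted p = 0.0123), and -0.70 (95% interval -1.61 to 0.21, adjusted p = 0.31) for LeuR. Cacna1g had 138, 171, 133 and 160.4 CPM in the 4 Control males, 158, 187 and 275 in the 3 IleR males, 69.5, 137 and 198 in the 3 LeuR males and 284, 179.8, 269 and 338 in the 4 ValR males. ValR lay above all Controls and LeuR 19 was the lowest library. In ValR the log2 fold change was 0.83 ± 0.28 (SE, adjusted p = 0.0453), a call lost in limma voom and without Control 1, Control 3, Control 4, Control 5, ValR 7, ValR 10, ValR 12, IleR 14 or LeuR 20 (adjusted p up to 0.124). Cacna1i had a log2 fold change of -0.93 ± 0.22 (SE, adjusted p = 0.0196) for LeuR, where its 3 libraries had 70.3, 93.7 and 118 CPM and the Controls 216, 186, 123 and 191 CPM. The LeuR call for Cacna1i was lost without Control 1, Control 3 or LeuR 19 (adjusted p up to 0.0956).

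The α2δ subunits moved in both directions: Cacna2d2 rose and Cacna2d1 fell for all 3 diets, and Cacna2d3 fell for IleR and ValR. These proteins lie outside the membrane, raise the number of channels at the surface and, for Cacna2d1 and Cacna2d2, bind the drug gabapentin. Cacna2d1 had 249, 215, 169 and 216 CPM in the 4 Control males, 94.4, 121 and 89.2 in the 3 IleR males, 52.2, 79.4 and 169 in the 3 LeuR males and 74.7, 80.9, 69.5 and 86.1 in the 4 ValR males. IleR and ValR did not overlap with Control, whereas LeuR 21 equalled the lowest Control, Control 4, within 1 CPM. On the log2 scale the change was -1.06 ± 0.30 (SE, adjusted p = 0.0273) for IleR, -1.08 ± 0.30 (SE, adjusted p = 0.0349) for LeuR and -1.45 ± 0.27 (SE, adjusted p = 0.00192) for ValR. The IleR call was lost without Control 1, Control 3, Control 5, IleR 13, IleR 14 or IleR 17 (adjusted p up to 0.0966) and the LeuR call without Control 1, Control 3, Control 5, ValR 7, LeuR 19 or LeuR 20 (adjusted p up to 0.114), while the ValR call held without any single library (highest adjusted p = 0.00901). With the hindbrain score as a covariate, the log2 fold changes of Cacna2d1 turned to 0.68, 0.07 and 0.48 and none passed the threshold.

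Cacna2d2, a subunit abundant in Purkinje cells whose loss causes ataxia in the ducky mouse, had 64.6, 46.5, 115 and 65.9 CPM in the 4 Control males, 138, 170.1 and 188 in the 3 IleR males, 129, 118 and 198 in the 3 LeuR males and 174, 152, 189.7 and 222 in the 4 ValR males. Every restricted library lay above every Control, with Control 4 the highest Control. Its log2 fold change was 1.18 ± 0.26 (SE, adjusted p = 0.00856) for IleR, 1.03 ± 0.26 (SE, adjusted p = 0.0267) for LeuR and 1.34 ± 0.25 (SE, adjusted p = 0.00171) for ValR. The LeuR call was lost without Control 1, Control 3, Control 5, LeuR 19 or LeuR 21 (adjusted p up to 0.0806), and the IleR and ValR calls held without any single library. Given the hindbrain score as a covariate, the log2 fold changes of Cacna2d2 stayed at 1.15 ± 0.55, 1.01 ± 0.41 and 1.31 ± 0.59 (SE), with larger errors, and none passed the threshold. Cacna2d3 fell for IleR and ValR, with -1.32 ± 0.24 (SE, adjusted p = 0.00287) and -1.08 ± 0.21 (SE, adjusted p = 0.00262) on the log2 scale, from 137, 98.9, 56.5 and 107 CPM in the Controls to 48.1, 39.7 and 32.3 in IleR and 47.9, 53.3, 50.4 and 37.4 in ValR. Cacna2d4, best known from the retina, ran from 1.09 to 2.43 CPM. As shares of the 4 genes' summed CPM per kb, Cacna2d1 had medians of 45.5% in Control, 24.8% in IleR, 22.2% in LeuR and 17.8% in ValR, and Cacna2d2 of 20.1% in Control, 59.7% in IleR, 53.8% in LeuR and 66.3% in ValR.

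Promoter sequences are shown for Cacna2d1 and Cacna2d2, the pair of α2δ genes that moved in opposite directions for all 3 diets, and below for a gene of the β family and one of the γ family that fell for all 3. They come from RefSeq for the build GRCm38.p6 and run from 250 bases before the RefSeq gene start to 50 bases after it, 5′ to 3′ on the strand of the gene. The RefSeq start is that of the GENCODE span given above for Cacna2d1 and lies 268 bases inside that span for Cacna2d2. RefSeq windows were found for 27 of the 36 genes, 38 windows in all. Capitals mark matches, on either strand, to any of 6 motifs: the TATA box TATAAA, the GC box GGGCGG, the cAMP response element (CRE) TGACGTCA, the E-box CAGCTG, the left part TTCAGCACC of the RE1 element that REST binds and the EGR site GCGTGGGCG, which can share letters with a GC box.
Cacna2d1, chr5:15934441-15934740, + strand: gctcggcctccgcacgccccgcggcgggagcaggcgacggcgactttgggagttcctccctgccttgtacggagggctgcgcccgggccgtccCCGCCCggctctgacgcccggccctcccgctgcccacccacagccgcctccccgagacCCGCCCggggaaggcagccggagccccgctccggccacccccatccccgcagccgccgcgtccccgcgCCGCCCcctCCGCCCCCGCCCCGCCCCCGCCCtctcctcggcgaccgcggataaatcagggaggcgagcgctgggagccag
Cacna2d2, chr9:107399630-107399929, + strand: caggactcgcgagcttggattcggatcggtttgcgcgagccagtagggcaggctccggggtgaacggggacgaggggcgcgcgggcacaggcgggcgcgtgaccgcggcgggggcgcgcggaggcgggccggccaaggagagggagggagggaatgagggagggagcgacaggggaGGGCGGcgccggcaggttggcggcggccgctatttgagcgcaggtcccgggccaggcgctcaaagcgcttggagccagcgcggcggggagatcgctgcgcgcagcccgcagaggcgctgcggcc
The Cacna2d1 window holds 7 GC boxes and 42 CpG in 300 bases, and the Cacna2d2 window 1 GC box and 43 CpG. A GC box was found in 15 of the 38 windows of the channel genes (39.5%), near the 35.7% of all 32851 promoter windows, and the E-box in 12 of them (31.6%), beside 16.3% of all windows. TATAAA was in 2 windows (13.6% of all windows), the EGR site in 1 (0.612% of all), and the CRE and the RE1 part in none (1.79% and 0.371% of all). A match is a run of letters and not a measured binding site.

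Of the calcium channel β subunits, which sit in the cytoplasm and hold the pore at the membrane, Cacnb1 and Cacnb3 fell for all 3 diets, Cacnb4 fell for LeuR and Cacnb2 did not pass the threshold for any. Cacnb3 had 286, 289, 121 and 246 CPM in the 4 Control males, 55.2, 47.5 and 39.9 in the 3 IleR males, 33.6, 67.1 and 110.1 in the 3 LeuR males and 46.5, 38.2, 41.4 and 43.8 in the 4 ValR males. Every restricted library lay below every Control, with Control 4 the lowest Control and LeuR 21 the highest restricted library. In edgeR, the log2 fold change was -2.31 ± 0.36 (SE, adjusted p = 0.00154) for IleR, -1.74 ± 0.35 (SE, adjusted p = 0.0107) for LeuR and -2.47 ± 0.33 (SE, adjusted p = 0.000233) for ValR. These calls held without any single library, with highest adjusted p of 0.0118, 0.0387 and 0.00146. With the hindbrain score as a covariate the log2 fold changes were -0.14, -0.21 and -0.05, and none passed. Cacnb3 has 2 RefSeq windows, and the one farther upstream is printed with the same marking because Cacnb3 had the largest fall among the β subunits. Its RefSeq start lies 1488 bases inside the GENCODE span of the gene, so the window is not upstream of that span.
Cacnb3, chr15:98632078-98632377, + strand: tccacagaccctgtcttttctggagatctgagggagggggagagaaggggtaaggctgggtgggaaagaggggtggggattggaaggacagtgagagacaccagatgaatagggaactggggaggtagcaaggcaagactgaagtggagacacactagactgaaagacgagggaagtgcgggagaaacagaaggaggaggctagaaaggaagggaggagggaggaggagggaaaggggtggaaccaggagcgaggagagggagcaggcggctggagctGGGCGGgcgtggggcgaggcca

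Cacnb1, the β subunit first known from skeletal muscle and also expressed in brain, had 177, 177, 94.0 and 139 CPM in the 4 Control males, 49.7, 47.7 and 32.1 in the 3 IleR males, 42.1, 57.9 and 93.4 in the 3 LeuR males and 37.1, 44.7, 29.8 and 29.8 in the 4 ValR males. Every restricted library lay below every Control, but Control 4 and LeuR 21 differed by under 1 CPM. As a log2 fold change this was -1.77 ± 0.29 (SE, adjusted p = 0.00184) for IleR, -1.19 ± 0.28 (SE, adjusted p = 0.0206) for LeuR and -2.05 ± 0.26 (SE, adjusted p = 0.000211) for ValR, and the LeuR call was lost without Control 1, Control 3, LeuR 19 or LeuR 20 (adjusted p up to 0.0954). Cacnb4, the main β subunit of cerebellum and the gene mutated in the lethargic mouse, had 373, 289, 207 and 342 CPM in the 4 Control males, 206, 254 and 312 in the 3 IleR males, 126, 195 and 99.3 in the 3 LeuR males and 273, 213, 385 and 397 in the 4 ValR males. ValR and Control overlapped, and the 3 LeuR libraries lay below all Controls, LeuR 21 lowest. In LeuR the log2 fold change was -1.11 ± 0.28 (SE, adjusted p = 0.026), lost without Control 1, Control 3, Control 5, LeuR 19 or LeuR 21 (adjusted p up to 0.108), and 0.07 (95% interval -0.47 to 0.61, adjusted p = 0.887) for ValR. The LeuR value was -1.21 ± 0.60 (SE) with the hindbrain score as a covariate, not past the threshold. Exons on the opposite strand overlap 16.0% of its exon length. Cacnb2 was even, from 37.5 to 61.8 CPM across the males, with a log2 fold change of -0.01 (95% interval -0.30 to 0.28, adjusted p = 0.964) for ValR. Cacnb3 made up medians of 45.8% in Control, 21.9% in IleR, 30.9% in LeuR and 18.6% in ValR of the β subunits' summed CPM per kb, and Cacnb4 27.7% in Control, 52.6% in IleR, 40.2% in LeuR and 62.4% in ValR. Cacnb4 itself rose past the threshold for no diet, while Cacnb1 and Cacnb3 fell. In LeuR 21 the Cacnb4 share was 17.4%, below all Controls at 22.0% to 29.8%. Its Cacnb3 share of 43.0% lay within the Controls at 38.9% to 49.1%.

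**Figure D2:**
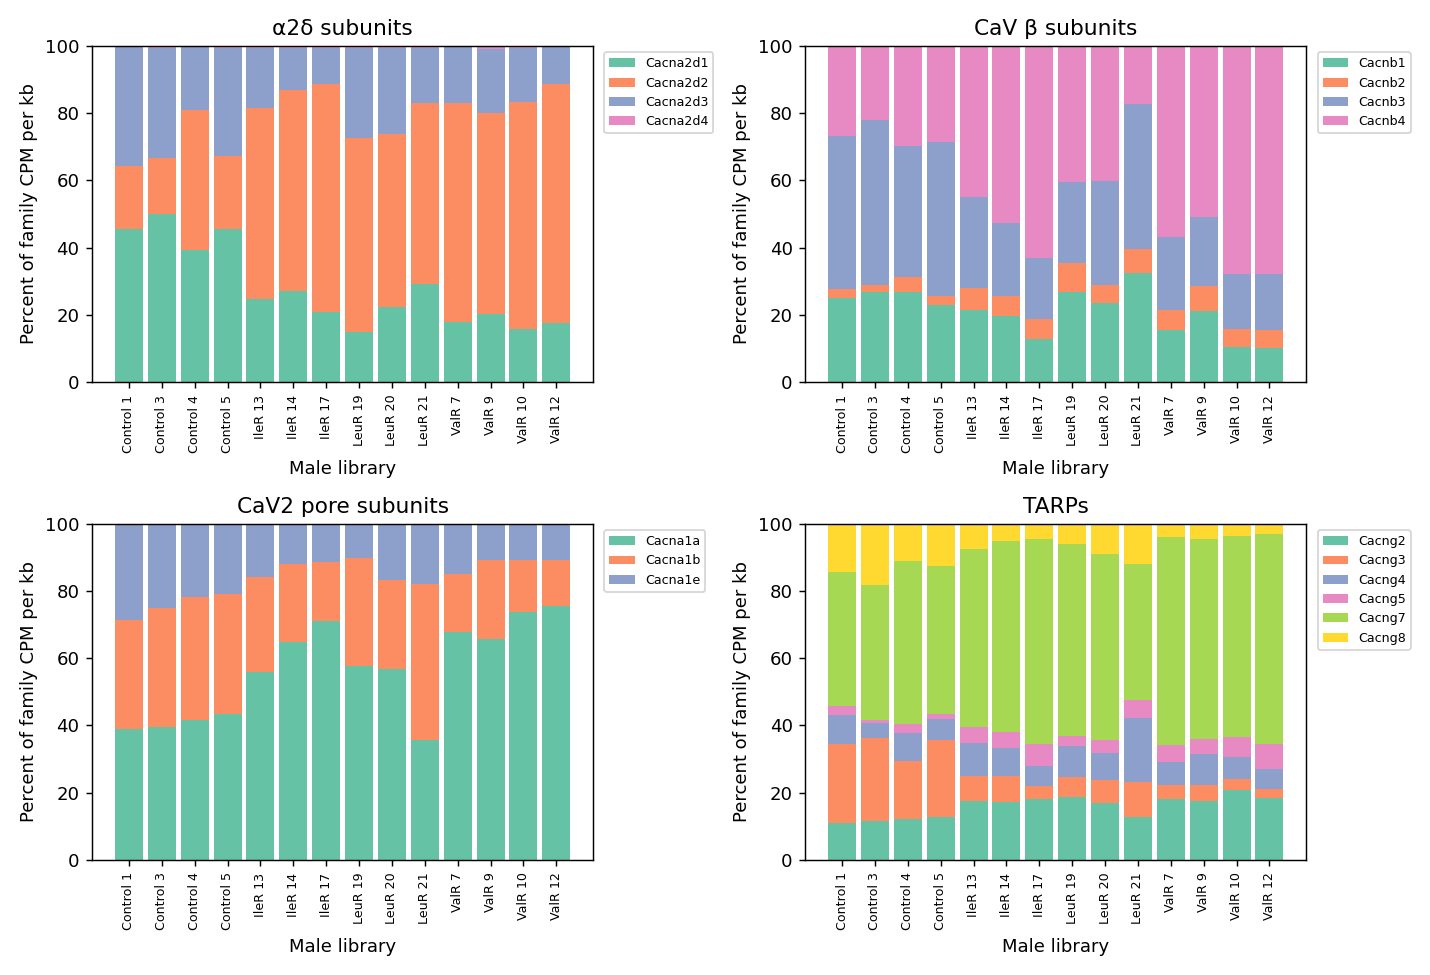
Stacked bars give each male library's make-up of 4 families (α2δ subunits, CaV β subunits, CaV2 pore subunits and TARPs), as percent of the family's summed CPM per kb on a vertical axis from 0 to 100. Cacna2d2, Cacnb4 and Cacna1a take larger shares in IleR and ValR than in every Control, and the bars of LeuR 21 differ from those of LeuR 19 and LeuR 20 for the CaV2 pores and the β subunits.

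The γ subunits held 3 genes that fell and 2 that rose. Cacng3 and Cacng8, TARPs of cortical and hippocampal neurons, fell for all 3 diets, Cacng5 rose for IleR and ValR, Cacng2 rose for ValR, Cacng6 fell for ValR and Cacng4 and Cacng7 passed the threshold for no diet. Cacng3 had 119, 131, 68.8 and 108 CPM in the 4 Control males, 25.0, 29.5 and 13.3 in the 3 IleR males, 19.2, 24.4 and 38.8 in the 3 LeuR males and 16.2, 18.7, 14.1 and 11.3 in the 4 ValR males. Every restricted library lay below every Control, with Control 4 the lowest Control. Its fitted log2 fold change was -2.23 ± 0.32 (SE, adjusted p = 0.00117) for IleR, -1.96 ± 0.31 (SE, adjusted p = 0.00475) for LeuR and -2.82 ± 0.29 (SE, adjusted p = 9.1e-05) for ValR, and these calls held without any single library (highest adjusted p = 0.00835, 0.0278 and 0.000765). With the hindbrain score as a covariate they were -0.90, -1.01 and -1.35, none past the threshold.

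Cacng8 had 61.0, 82.2, 37.9 and 50.3 CPM in the 4 Control males, 21.8, 17.3 and 14.1 in the 3 IleR males, 17.1, 27.0 and 37.3 in the 3 LeuR males and 13.0, 14.8, 12.6 and 11.0 in the 4 ValR males. Restricted libraries and Controls did not overlap, but LeuR 21 and Control 4 differed by under 1 CPM. On the log2 scale the change was -1.71 ± 0.28 (SE, adjusted p = 0.00189) for IleR, -1.09 ± 0.28 (SE, adjusted p = 0.026) for LeuR and -2.17 ± 0.26 (SE, adjusted p = 0.000154) for ValR, with the LeuR call lost without Control 1, Control 3, LeuR 19 or LeuR 20 (adjusted p up to 0.111). A stretch of 91 exon bases of Cacng8 is shared with Gm23450 on the same strand. Cacng7, Cacng8 and Cacng6 lie in this order on chromosome 7, with 22461 bases between the first pair and 8546 between the second. Cacng8 and Cacng6 fell for ValR, while Cacng7, which passed the threshold for no diet, had 178, 186, 170.3 and 181 CPM in the Controls and 214, 198, 219 and 227 in ValR, with a log2 fold change of 0.26 (95% interval 0.05 to 0.47, adjusted p = 0.071). The promoter window of Cacng8, a TARP gene that fell for all 3 diets, is given with the marking used above, and it holds an E-box and no GC box. Its RefSeq start lies 3359 bases inside the GENCODE span given above.
Cacng8, chr7:3393792-3394091, + strand: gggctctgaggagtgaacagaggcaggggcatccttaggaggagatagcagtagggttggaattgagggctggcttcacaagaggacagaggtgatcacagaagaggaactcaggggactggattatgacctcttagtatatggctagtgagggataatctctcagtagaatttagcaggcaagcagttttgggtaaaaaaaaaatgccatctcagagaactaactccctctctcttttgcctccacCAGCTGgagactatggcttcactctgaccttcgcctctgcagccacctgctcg

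Cacng5, a TARP of the second type, had 16.7, 6.51, 14.8 and 9.05 CPM in the 4 Control males, 21.4, 26.1 and 32.1 in the 3 IleR males, 12.7, 18.3 and 27.7 in the 3 LeuR males and 27.8, 23.7, 34.6 and 42.4 in the 4 ValR males. IleR and ValR lay above all Controls and LeuR overlapped with them. Its log2 fold change was 1.18 ± 0.32 (SE, adjusted p = 0.0261) for IleR, lost without Control 3, Control 5, IleR 14 or IleR 17 (adjusted p up to 0.107), 1.45 ± 0.31 (SE, adjusted p = 0.00406) for ValR and 0.73 (95% interval 0.03 to 1.44, adjusted p = 0.164) for LeuR. Cacng2, or stargazin, the TARP missing in the ataxic stargazer mouse, had 109, 122, 97.1 and 118 CPM in the Controls and 142, 131, 171 and 152 in ValR. The rise was small but without overlap, with a log2 fold change of 0.41 ± 0.11 (SE, adjusted p = 0.0172), lost without ValR 10 (adjusted p up to 0.0612). Cacng6, a γ subunit without TARP activity, had 0.409, 0.828, 0.7 and 0.0559 CPM in the Controls and 0 counts in all 4 ValR libraries. The Controls were themselves near the limit of detection, so no fold is given. With 0 counts in ValR, Cacng6 passed the filter on low counts only through other groups. It is still counted among the 11 genes that fell for ValR, among the slopes and by sex. The adjusted p was 0.0222 in edgeR and the call was lost without Control 3 (adjusted p up to 0.0539). Cacng4, a TARP abundant early in development, ran from 29.0 to 90.2 CPM, highest in LeuR 21, with 0.40 (95% interval -0.23 to 1.04, adjusted p = 0.413) for LeuR. In the TARPs' summed CPM per kb, Cacng3 took medians of 23.3% in Control, 7.36% in IleR, 6.95% in LeuR and 3.76% in ValR, and Cacng7 42.0% in Control, 56.7% in IleR, 55.4% in LeuR and 60.8% in ValR. The Cacng7 share of LeuR 21, 40.5%, lay within the Controls at 40.0% to 48.5%.

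**Figure D3:**
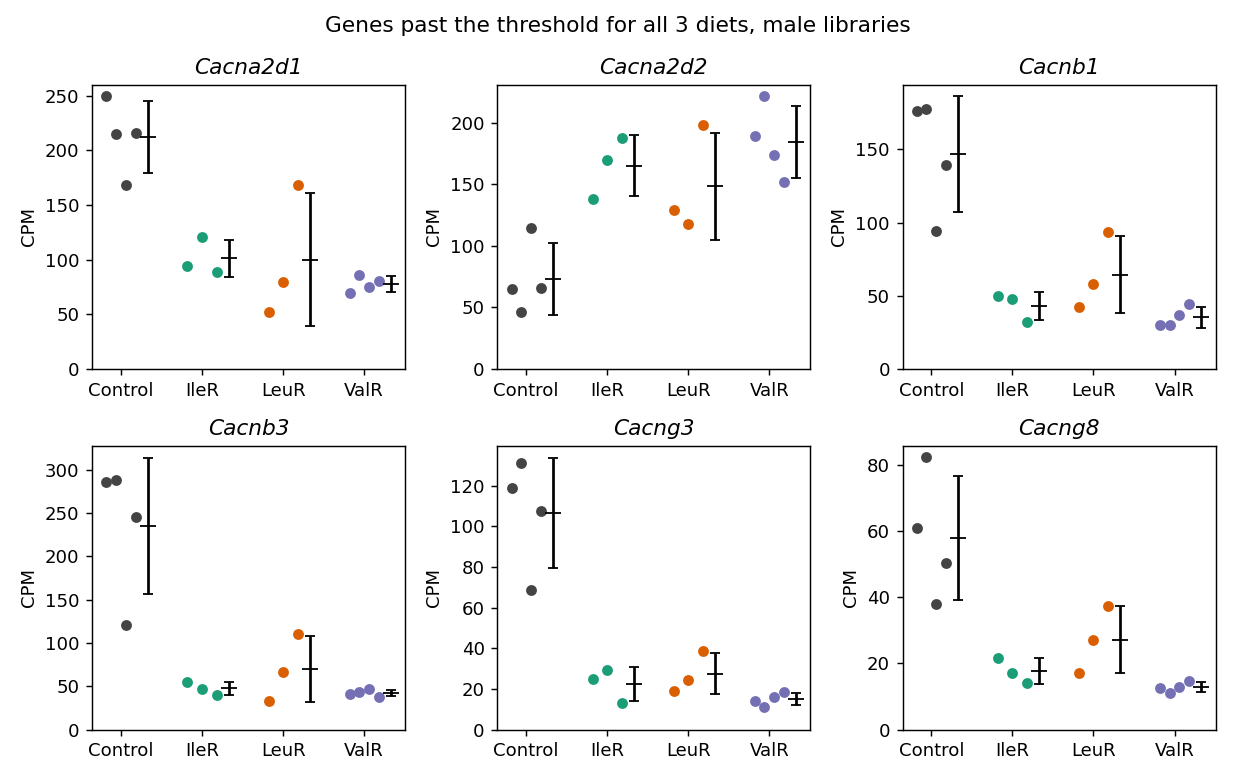
Points are male libraries, with CPM on the vertical axis from 0 and the diet on the horizontal axis; bars give mean ± SD of the group (n = 4, 3, 3 and 4). For Cacnb3 and Cacng3 all restricted libraries lie below all Controls and for Cacna2d2 all lie above, while the highest LeuR point of Cacna2d1, Cacnb1 and Cacng8 reaches close to the lowest Control.

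**Figure D4:**
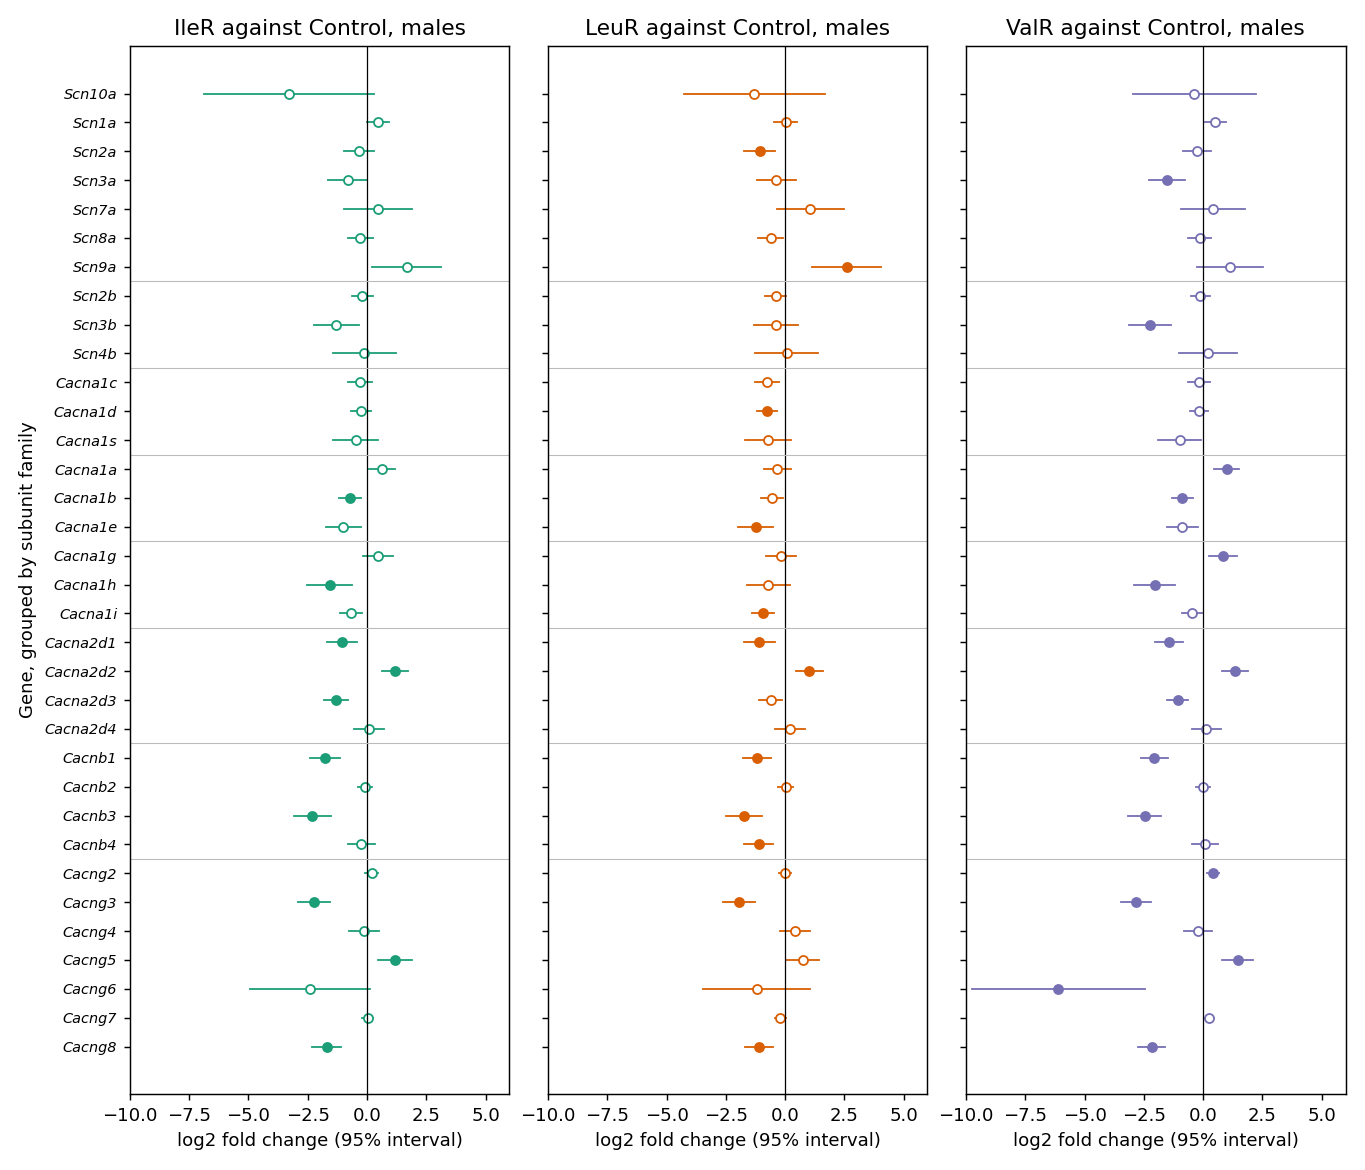
Points are log2 fold changes against Control in males, with 95% intervals, for 34 genes grouped by family; filled points passed the threshold of 0.05 (edgeR, Benjamini-Hochberg). The filled points of Cacng3, Cacnb3, Cacnb1 and Cacng8 lie left of 0 and those of Cacna2d2 right of 0 in all 3 panels; the position of Cacng6 in ValR depends on the prior count.

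The restricted diets were also compared with each other in males. Between ValR and IleR, and between IleR and LeuR, none of the 36 genes passed the threshold in edgeR, and 1 and 5 had an unadjusted p under 0.05; of all genes 0% and 0% passed, with 628 and 2512 under an unadjusted p of 0.05. Between ValR and LeuR 4 genes passed, where 2.75% of all genes did, while DESeq2 called 12 and limma voom 3, without Scn3b. Cacna1a, Cacnb4 and Cacng7 were higher in ValR, by 1.31 ± 0.27 (SE, adjusted p = 0.0481), 1.18 ± 0.28 (SE, adjusted p = 0.0491) and 0.46 ± 0.11 (SE, adjusted p = 0.0491) on the log2 scale, and Scn3b was lower, with -1.87 ± 0.43 (SE, adjusted p = 0.0491). All 4 calls sat close to the threshold. The count was 0 without any of Control 1, Control 3, Control 5, IleR 14, LeuR 21, ValR 7, ValR 10 or ValR 12, was 10 without ValR 9 and was 0 with the hindbrain score as a covariate. Without LeuR 19 the count was 3, but Cacna1a, Cacnb4 and Cacng7 were lost and Cacna1h and Cacng8 were called beside Scn3b, and without IleR 13 Cacnb4 was lost. With that covariate the log2 fold change was 1.31 ± 0.34 for Cacna1a, 1.14 ± 0.35 for Cacnb4, 0.34 ± 0.12 for Cacng7 and -1.04 ± 0.42 (SE) for Scn3b, so Cacna1a and Cacnb4 stayed about as large while their calls were lost. LeuR 21, which had the highest Scn3b and the lowest Cacnb4, Cacna1a and Cacng7 of the 3 LeuR males, was thus among the libraries each call rested on. Across diets in males, ValR had the lowest group mean of Cacng3, Cacnb3, Cacna2d1 and Scn3b and the highest of Cacna2d2 and Cacng5, but the IleR values overlapped with the ValR values for each of these genes except Cacna2d1.

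In females no channel gene was called. None of the 36 genes passed the threshold in edgeR for IleR, LeuR or ValR, where 0%, 0% and 0% of all 20344 genes did. With an unadjusted p under 0.05 there were 0, 2 and 2 channel genes and 577, 820 and 777 genes in all. DESeq2 called 8, 1 and 0 genes and limma voom 1, 0 and 0, none of them a channel gene. The smallest unadjusted p belonged to Cacna1s for IleR, with a log2 fold change of -0.66 ± 0.46 (SE, unadjusted p = 0.17, adjusted p = 1), to Scn2b for LeuR, with -0.16 ± 0.07 (SE, unadjusted p = 0.0303, adjusted p = 0.968), and to Cacna1i for ValR, with -0.26 ± 0.12 (SE, unadjusted p = 0.0495, adjusted p = 1). None held after adjustment.

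The 6 genes that passed the threshold for all 3 diets in males show the spread in females. Cacnb3 had a lowest, median and highest value of 70.4, 232 and 289.7 CPM in the 6 Control females, 93.3, 200.2 and 262 in the 5 IleR females, 32.8, 160.1 and 313 in the 6 LeuR females and 69.5, 185 and 256 in the 6 ValR females. The groups overlapped over nearly their whole ranges, and its log2 fold change was -0.07 (95% interval -0.96 to 0.81, adjusted p = 1) for IleR and -0.19 (95% interval -1.04 to 0.65, adjusted p = 1) for ValR. Cacng3 had 25.9, 108 and 137 CPM in Control, 52.8, 99.3 and 141 in IleR, 9.52, 102 and 146 in LeuR and 37.6, 90.3 and 133 in ValR, with a log2 fold change of -0.23 (95% interval -1.17 to 0.70, adjusted p = 0.968) for LeuR. Cacna2d1 had 79.9, 182 and 236 CPM in Control and 109.7, 180.0 and 252 in ValR. Cacna2d2 had 61.5, 104 and 191 CPM in Control and 59.0, 90.4 and 151 in ValR, with a log2 fold change of -0.07 (95% interval -0.83 to 0.69, adjusted p = 1). Cacnb1 and Cacng8 likewise overlapped between all groups, with -0.11 (95% interval -0.89 to 0.66, adjusted p = 1) and 0.12 (95% interval -0.74 to 0.99, adjusted p = 1) for ValR. None of these intervals reached the male log2 fold change of the same gene and diet, but the male value has an error of its own. The difference between the sexes was tested apart, below, and for IleR and LeuR no channel gene passed in edgeR. As shares of the α2δ subunits, Cacna2d1 took medians of 41.7% in Control, 43.3% in IleR, 32.9% in LeuR and 41.5% in ValR and Cacna2d2 of 33.8% in Control, 28.9% in IleR, 40.8% in LeuR and 34.6% in ValR in females, and Cacna1a took 41.6% in Control, 42.7% in IleR, 41.4% in LeuR and 40.9% in ValR of the CaV2 pores.

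Whether the effect of a diet differed between the sexes was tested in 1 model of all 37 libraries, in which 22465 genes were tested. For ValR 6 of the 36 genes passed the threshold, all with a more negative change in males, beside 4.25% of all genes. The difference, male minus female log2 fold change, was -2.67 ± 0.64 (SE, adjusted p = 0.0213) for Cacng3, -2.30 ± 0.59 (SE, adjusted p = 0.0283) for Cacng8, -2.29 ± 0.59 (SE, adjusted p = 0.0302) for Cacnb3, -1.95 ± 0.53 (SE, adjusted p = 0.0368) for Cacnb1 and -1.49 ± 0.42 (SE, adjusted p = 0.0385) for Cacna2d1, and the sixth gene was Cacng6, with 0 counts in all ValR males. For IleR and LeuR none passed in edgeR, beside 0.0979% and 0.00445% of all genes, although Cacnb3 and Cacng3 had differences of -2.22 (95% interval -3.53 to -0.92, adjusted p = 0.0844) and -2.19 (95% interval -3.59 to -0.79, adjusted p = 0.102) for IleR. The male and the female libraries have separate count tables, and sex and table cannot be told apart.

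The ValR count by sex was unstable. It was 0 without male Control 3, ValR 10 or ValR 12, 1 without ValR 7, 2 without male Control 1 or female ValR 35, 3 without female Control 30, 10 without female LeuR 45 and 11 without female ValR 36, and it was 0 in limma voom and with the hindbrain score as a covariate but 11 in DESeq2. DESeq2 also called Cacnb1, Cacnb3, Cacng3 and Cacng8 for IleR and Cacna1c, Cacna1d, Cacna1e, Cacnb4 and Scn2a for LeuR, and edgeR with the covariate called Cacnb4 for LeuR. For IleR the count was 3 without female IleR 41, 2 without female LeuR 45 and 1 without male Control 4, and for LeuR it was 5 without male Control 4. The call of Cacng3 was lost without Control 3, ValR 10 or ValR 12 (adjusted p up to 0.0605), that of Cacnb3 without Control 1, Control 3, ValR 7, ValR 10, ValR 12, female Control 30 or female ValR 35 (adjusted p up to 0.0723), that of Cacng8 without Control 1, Control 3, ValR 7, ValR 10, ValR 12 or female ValR 35 (adjusted p up to 0.0711) and that of Cacng6 without Control 3, ValR 7, ValR 10 or ValR 12 (adjusted p up to 0.0734). Those of Cacnb1 and Cacna2d1 were lost without any of 13 and 16 libraries, Control 1, Control 3, Control 5, ValR 7, ValR 10, ValR 12, female Control 27, female Control 29, female Control 30, female ValR 32, female ValR 33, female ValR 34 or female ValR 35 (adjusted p up to 0.0863) and Control 1, Control 3, Control 5, ValR 7, ValR 9, ValR 10, ValR 12, female Control 27, female Control 29, female Control 30, female ValR 31, female ValR 32, female ValR 33, female ValR 34, female ValR 35 or female IleR 40 (adjusted p up to 0.0912).

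The females varied in regional markers too, within each diet. Of the 12 Brainstem and spinal cord genes in the score, only 6 passed the filter on low counts in females. That list summed to 3.09 to 172 CPM over the female libraries. Their hindbrain score ran from -8.51 to 1.72, and the highest values belonged to LeuR 45 at 1.72, ValR 36 at -0.07 and Control 30 at -0.58. A slope of each gene on this score was fitted within diet over the 23 females, as log2 CPM per unit of score, with the same edgeR test. Of the 36 channel genes 8 had a positive and 17 a negative slope past the threshold, where 21.9% and 23% of all genes did. The score comes from other genes of the same libraries. The positive slopes were those of Cacna1g (0.15 ± 0.02 SE), Cacng5 (0.14 ± 0.03), Cacna1a (0.14 ± 0.02), Cacna2d2 (0.12 ± 0.03), Scn1a, Cacng2, Cacnb4 and Cacng7. Among the negative slopes were those of Cacna1h (-0.29 ± 0.03), Scn3b (-0.24 ± 0.04), Cacng3 (-0.23 ± 0.04) and Cacng8 (-0.23 ± 0.03).

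These slopes were read beside the male calls. All 10 channel genes called for IleR in males and all 16 called for ValR had a female slope past the threshold with the same sign as their male change. Of the 12 called for LeuR, 8 did, Cacnb4 had a slope of the other sign and Cacna1d, Scn2a and Scn9a had none past the threshold. The slope call of Cacnb4 was lost without female Control 30, LeuR 43 or LeuR 45 (adjusted p up to 0.115), with the score of the Brainstem and spinal cord list and without the pair of females farthest from the median score. That of Cacna1i, among the 8, was lost without any of 4 females, Control 28, ValR 35, IleR 39 or LeuR 48 (adjusted p up to 0.0591), and that of Cacng6, among the 16 for ValR, without the farthest pair. Over all genes called in males and tested in females the share with such a slope was also high: 89.8% of 3290 for IleR, 71.8% of 2178 for LeuR and 88.1% of 5022 for ValR, beside 100%, 66.7% and 100% of the channel genes called. The slope rests on female libraries alone and the male calls on male libraries alone. The counts of slopes were 7 to 9 positive and 15 to 19 negative when single females were left out.

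**Figure D5:**
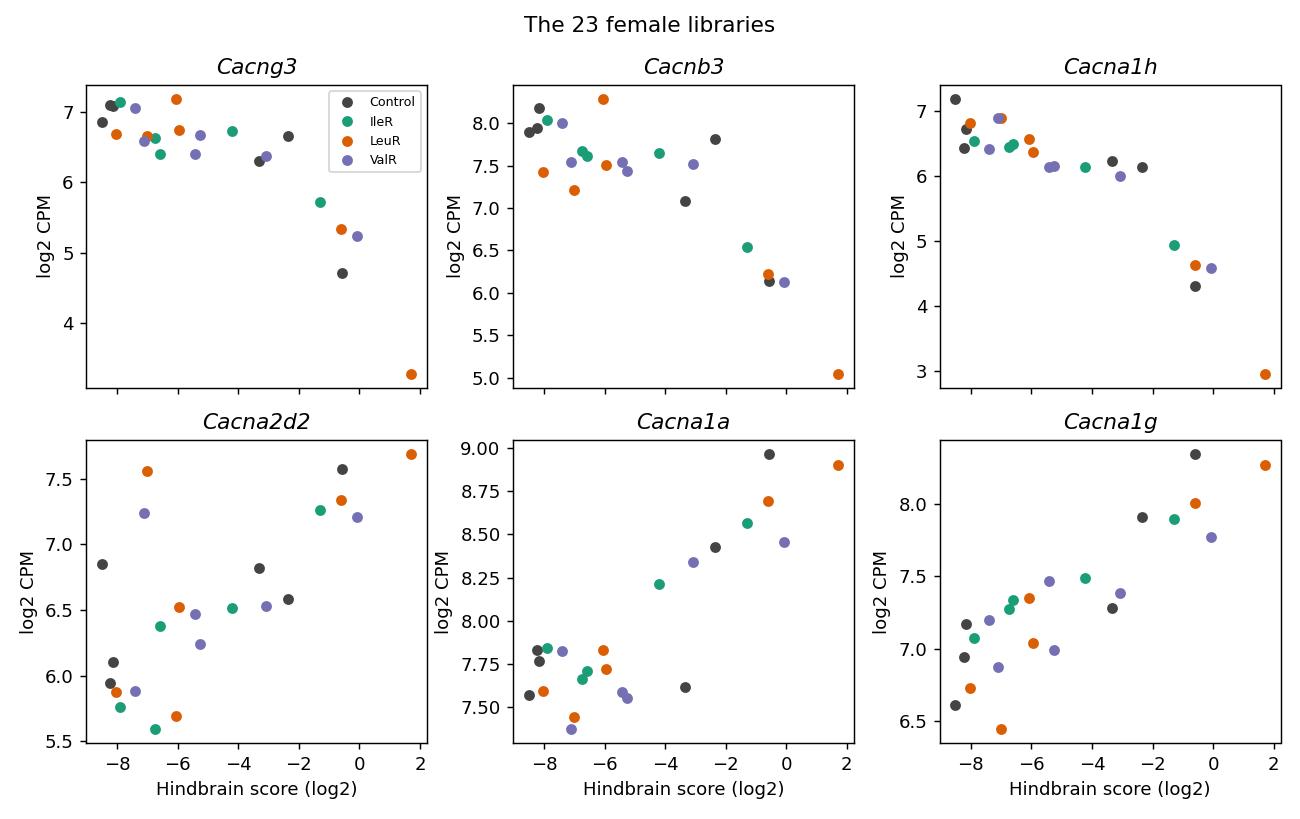
Each point is 1 of the 23 female libraries, coloured by diet, with the hindbrain score (log2) on the horizontal axis and log2 CPM of the gene on the vertical axis. Cacng3, Cacnb3 and Cacna1h are lowest in the libraries with scores above -2, Cacna1a is highest in them and Cacna2d2 and Cacna1g lie above most others, with all 4 diets among these libraries.

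Other proteins that bind sodium or calcium channels were followed in 2 lists. In the sodium channel list, 20 genes of anchors, adhesion proteins, FGF homologous factors and regulators, 3 rose and 6 fell in IleR males, 0 rose and 6 fell in LeuR males and 4 rose and 8 fell in ValR males, read against the shares of all genes given above for each diet. Gpd1l, Nedd4l, Nrcam and Unc79 fell for all 3 diets. Nedd4l, a ubiquitin ligase that removes sodium channels from the membrane, had log2 fold changes of -1.12, -1.30 and -1.0, and Fgf13, a factor that binds the channel's C-terminus, fell with -1.15 for IleR and -1.60 for ValR. Cntn2, an adhesion protein next to nodes of Ranvier, rose by 0.78 for IleR and 0.96 for ValR, and Nfasc, an anchor of nodes, by 0.41 and 0.46.

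In the calcium channel list of 28 genes, which holds calmodulins, proteins of the presynaptic active zone and SNARE proteins, 1 rose and 10 fell in IleR males, where 6.63% and 8.68% of all genes did. In LeuR males 0 rose and 13 fell, beside 3.81% and 6.33%, and in ValR males 1 rose and 11 fell, beside 11.1% and 12.4%. Among the genes that fell for all 3 diets were Akap5, Calm2, Calm3, Erc2, Rimbp2, Stx1a, Syt1 and Unc13a. Stx1a, the syntaxin that binds CaV2 pores at release sites, had log2 fold changes of -4.26 for IleR, -2.74 for LeuR and -4.75 for ValR. Akap5, an anchor of kinases at L-type channels, had -3.28, -2.36 and -3.70, and Syt1, the calcium sensor of release, -1.54, -1.37 and -1.83. Stac, an adaptor of L-type channels, rose by 2.19 for IleR and 2.89 for ValR. In females 0 genes of either list passed the threshold for any diet in edgeR. Between ValR and LeuR males Unc80 was higher and Rimbp2 and Stx1a were lower in ValR, where 2.75% of all genes were called. None of these calls passed with the covariate or without Control 1, Control 3, Control 5, IleR 14, LeuR 21, ValR 7, ValR 10 or ValR 12, while DESeq2 called 7 calcium and 3 sodium channel partners and limma voom 1 of each list. The calcium and sodium counts were 4 and 3 without Control 4, 3 and 3 without ValR 9, 3 and 2 without LeuR 20, 3 and 1 without IleR 17 or LeuR 19 and 1 and 1 without IleR 13. By sex the ValR effect differed for 7 of the 28 calcium channel partners and for 1 of the 20 sodium channel partners, Gpd1l, where 4.25% of all genes did. Among them were Stx1a with a male minus female log2 fold change of -4.57 ± 0.92 (SE, adjusted p = 0.00937), Akap5 with -3.50 ± 0.85 (SE, adjusted p = 0.0222) and Syt1 with -1.81 ± 0.42 (SE, adjusted p = 0.0186), and Gpd1l had -0.90 ± 0.22 (SE, adjusted p = 0.0214). Both counts were 0 in limma voom and with the hindbrain score as a covariate. The calcium count was 3 without male Control 1, Control 3, ValR 10 or ValR 12 and 4 without male ValR 7, and the sodium count was 0 without male Control 3, ValR 7, ValR 10 or ValR 12. It was 8 without female ValR 36, 5 without male Control 4, 3 without female Control 28 or LeuR 45, 2 without female Control 26, female IleR 41 or male ValR 9, 5 in DESeq2 and 0 in limma voom or with the covariate.

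The partner calls shared the limits of the channel calls. No gene of either list passed the threshold for any diet in males once the hindbrain score was a covariate. Among the named folds, Stx1a was then -1.59, -0.85 and -1.77 and Akap5 -0.74, -0.46 and -0.85 in the order of diets used above, all with an adjusted p of 0.702 or more. The calls of Akap5, Stx1a and Syt1 held for all 3 diets without any single library, with adjusted p up to 0.0384. Many others rested on single libraries: in the calcium list 2 of 11 calls for IleR, 8 of 13 for LeuR and 2 of 12 for ValR, and in the sodium list 7 of 9, 6 of 6 and 2 of 12, were lost without at least 1 library. Of the genes named as falling for all 3 diets, Calm2 was lost in this way for each diet, Nedd4l, Nrcam and Unc79 for IleR and LeuR, and Calm3, Erc2, Gpd1l, Rimbp2 and Unc13a for LeuR. The IleR calls of Fgf13 and Stac were lost as well, without 4 libraries and 1, and that of Nfasc without any of 11. For LeuR the calcium list had 5 genes lower without LeuR 19 and 8 without Control 1, Control 3 or Control 5, and the sodium list had 0 without LeuR 19 and 3 without Control 1 or Control 3. Without Control 4 the LeuR counts were 3 higher and 17 lower in the calcium list and 1 and 8 in the sodium list, and without LeuR 21 the sodium list had 3 higher. For IleR the sodium list had 1 gene lower without IleR 14, 2 without IleR 17 and 3 without Control 1, Control 3 or IleR 13, 10 without Control 4 and 1 higher without any of 9 libraries. Fitting only the LeuR and Control males left no LeuR call in either list.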

How the data were processed

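RNA from brains of 3xTg mice was sequenced. The authors aligned reads to GRCm38.p5 and deposited expected counts per Ensembl gene and library, male and female tables apart; whether polyA or total RNA was selected differs between labels and methods, and the counting strand is not given in the sources used here. The authors' deposited fold changes and p-values were not used.

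Expected counts were rounded. A gene was kept where some diet group had 1 count or more in each of its libraries, libraries were TMM-scaled, the 4 diets of a sex were fitted together with edgeR 4.0.16's quasi-likelihood test (R 4.3.3), with Benjamini-Hochberg adjustment (threshold 0.05). Log2 CPM used a prior count of 2. Levels per kb used merged GENCODE M21 exons; levels of the 2 tables were normalized separately. DESeq2 1.42.0, limma 3.58.1 (voom), other scalings, no filter, a hindbrain score covariate and leaving out libraries were alternatives, as were scores from either hindbrain list and leaving out the 2 females farthest from the median score for the slopes. The tests were tested on simulated data. Labels tie each library to 1 number, not to a named animal, so p-values measure the spread between these samples. The channel genes, marker lists and partner lists were chosen with earlier results of these data known. Every channel gene past the threshold in males is named, with others by family; some genes and 1 sequence of the lists are not reported here.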

Additional observations from a re-analysis of the deposited data

Results flagged for a closer look

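Of 209 groups of libraries (4 to 6 libraries of 1 sex and diet, for 1 gene or for the hindbrain score), 20 held 1 library whose value stood apart from the rest by Dixon's criterion, where chance at 1 in 20 gives 10.4. Female Control 30 stood apart from the other Control females in 6 genes, with 19.7 CPM of Cacna1h, 79.9 of Cacna2d1, 25.9 of Cacng3, 16.3 of Cacng8, 12.6 of Scn3a and 22.7 of Scn3b, each the lowest of its group. Female ValR 36 was likewise lowest in 4 genes, with 69.5 CPM of Cacnb3, 37.6 of Cacng3, 21.8 of Cacng8 and 49.5 of Scn3b. Female IleR 41 was lowest in 3, with 30.4 CPM of Cacna1h, 46.3 of Cacna2d3 and 93.3 of Cacnb3. Each of these 3 libraries had the highest hindbrain score of its diet in females, -0.58, -0.07 and -1.28, and the part of the regional markers in these values was not tested.

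The others were single values. Cacna1d stood high in female Control 29, at 88.2 CPM, Cacna1i in female ValR 35, at 188 CPM, and Scn9a in female IleR 42, at 6.56 CPM. Among genes of low level, Cacna2d4 had 4.20 CPM in female LeuR 44, Scn7a 2.08 CPM in female ValR 31 and Scn10a 2.90 CPM in male ValR 9. Scn8a, the node pore, was low in male Control 4, at 362 CPM.

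In edgeR's test of the interaction of sex and diet, 6 genes passed the threshold for ValR. Leaving out 1 library at a time gave 0 to 11 such genes. None passed in limma voom or with the hindbrain score as a covariate. The male minus female log2 fold changes were -2.29 for Cacnb3, -1.95 for Cacnb1, -1.49 for Cacna2d1, -2.30 for Cacng8 and -2.67 for Cacng3. For Cacng6 the fitted value of -6.45 depends on the prior count, because all ValR males had 0 counts.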

How the results depend on the processing

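No paired analysis was possible because the diet groups share no library number. Over the calls made, scaling by DESeq2 size factors kept all 73 past the threshold, DESeq2 48 of 48, limma voom 65 of 73 (it lost Cacna1g for ValR, Scn3b between ValR and LeuR and the 6 by sex), no filter on low counts 72 of 73 and fitting only the 2 groups compared 26 of 38. Of 25 slopes, 25 were kept with the Cerebellum list only, 24 with the Brainstem and spinal cord list only and 22 without the pair of females farthest from the median score. With the hindbrain score as a covariate none of 48 passed, 7 were at least as large and 8 changed sign: Cacna1b to 0.65 for IleR and 0.64 for ValR, Cacna1h to 0.49 and 0.25, Cacna2d1 to 0.68 and 0.48 and, for LeuR, 0.072, and Scn3a to 0.23 for ValR. That covariate gave 0 channel genes in either direction for each diet in males, 0 between ValR and LeuR, 0 for ValR by sex and 1 for LeuR by sex. The fit of LeuR and Control males alone gave 0 higher and 0 lower. DESeq2 called 4, 5 and 11 genes by sex for IleR, LeuR and ValR and 12 between ValR and LeuR, and limma voom 0 by sex for ValR. The cause of these changes was not tested.

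Leaving out 1 library at a time gave 1 to 3 genes higher and 5 to 10 lower for IleR males, 0 to 2 and 2 to 14 for LeuR, 3 to 7 and 10 to 13 for ValR, 0 to 10 between ValR and LeuR, 0 in females and in the other male contrasts, 0 to 3, 0 to 5 and 0 to 11 by sex for IleR, LeuR and ValR, and 7 to 9 positive and 15 to 19 negative slopes. The hindbrain score difference ran from 7.39 to 8.68, 4.88 to 7.74 and 8.36 to 9.65 in males and from -1.17 to 0.764, -0.338 to 1.79 and -0.463 to 1.39 in females. Genes near 1 CPM or below, among them Cacna1s, Cacng6 and Scn10a, rest on a few counts per library, and changes there were not detectable at this depth unless large. The 3 or 4 males per diet limit what the tests resolve.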
